A study of Mus musculus with 6 samples.

Results

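The 9 genes described here belong to adrenergic receptor and cAMP signaling in brown adipose tissue (BAT). All but *Adcy10*, a cyclase that the receptors do not control, carry the noradrenaline signal from the cell surface to protein kinase A. The 9 genes are the β-adrenergic receptors *Adrb3* and *Adrb1*, the stimulatory G protein gene *Gnas*, the adenylyl cyclases *Adcy3*, *Adcy5* and *Adcy10*, and the protein kinase A (PKA) subunits *Prkaca*, *Prkacb* and *Prkar2b*. The genes were chosen by symbol, and every array probe whose RefSeq transcript belonged to one of them was taken, which gave 18 of 56605 probes and 9 of 23462 genes with a probe. BAT came from male mice 8 weeks old, 3 wild-type (WT) and 3 miR-22 knockout (KO), with 1 mouse on each 1-colour Agilent array. The KO mice were the constitutive line obtained from the Jackson Laboratory, so miR-22 was missing from every tissue and not only from brown adipocytes. Nothing in the labels ties a WT mouse to a KO mouse, and the housing temperature and genetic background of these 6 mice were not given in the sources used here.

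Noradrenaline released by sympathetic nerves binds β-adrenergic receptors on brown adipocytes, of which the β3 receptor is the adipocyte form. The occupied receptor activates Gs, Gs activates membrane adenylyl cyclases, and the cAMP that they make releases the catalytic subunits of PKA from their regulatory subunits. PKA then phosphorylates lipolytic proteins and the transcription factor CREB, which is how cold turns on fat breakdown and *Ucp1* in this tissue.

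The deleted microRNA is the only designed difference between the groups, and its mature forms are shown for that reason, 5′ to 3′ from RefSeq (build GRCm38.p6, plus strand, chr11:75463772-75463793 and chr11:75463734-75463755), with the seed, bases 2 to 8, in capitals.
mmu-miR-22-3p: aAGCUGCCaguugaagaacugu
mmu-miR-22-5p: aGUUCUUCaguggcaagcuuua
No probe read mature miR-22, so its loss was not checked on these arrays. Its host transcript *Mir22hg* had 1 probe, at 1.20, 1.69 and 1.22 in the WT mice and at 2.02, 2.11 and 2.23 in the KO mice. Whether this probe lies in the deleted stretch is not given in the sources used here, so the value does not check the labels.

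All levels are scaled log2 intensities, that is, log2 of a spot's processed signal over the 75th percentile of its array, so 0 means a signal equal to that percentile. Levels are compared between mice for 1 probe at a time, and never between probes. Feature Extraction marked some spots as outliers, from 4.87% of spots on the WT 1 array to 17.1% on WT 3 and 15.1% on KO 1. Marked spots were left out, and a probe was tested only with at least 2 unmarked values in each group and a signal above background on at least 3 arrays. Of the 18 probes, 7 had a marked spot, 15 were above background on all 6 arrays and 1 was above background on none. The test was possible for 13 probes and for all 9 genes, each gene standing on its brightest testable probe, and for 16 probes when marked spots were kept.

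Among the 9 genes, the KO mean was below the WT mean for 7, as it was for 7780 of all 14712 genes tested. With limma, 1 gene was lower in KO mice at an unadjusted p below 0.05, the threshold of the study's methods, and that was *Adcy10*, while 1 was higher, *Adcy5*. Over the 14712 genes tested, 8.81% were lower and 10.0% were higher at that threshold, so these counts lie near the share of all genes. After Benjamini-Hochberg adjustment over all genes (called adjusted p throughout) none of the 9 passed 0.05, while 0.0408% of all genes passed as lower and 0.143% as higher. The median log2 difference of the 9 genes was -0.23, beside -0.03 for all tested genes. The series' design text calls the BAT samples flow separated, while the study's methods describe RNA of BAT and give no sort. The samples were therefore treated as whole tissue. In whole tissue, fewer cells of a type and less RNA per cell cannot be told apart.

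The count depended on the marked spots, and through them on the probe that stood for a gene. With these kept, the KO mean was below the WT mean for 8 of the 9 genes, as for 9002 of all 16111 genes then tested. At an unadjusted p below 0.05, 4 were lower in KO mice, *Adrb3*, *Gnas*, *Prkaca* and *Adcy10*, where 11.1% of all genes were. For *Gnas* and *Prkaca* a brighter probe then stood for the gene. With marked spots kept, the probes used before were at -0.20 (*Gnas*) and 0.18 (*Prkaca*), both outside the unadjusted threshold. *Adcy5* was again the gene that was higher, where 9.47% of all genes were. The median of the 9 genes was then -0.47, beside -0.06 for all genes, and still none passed the adjusted threshold.

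**Figure D1:**
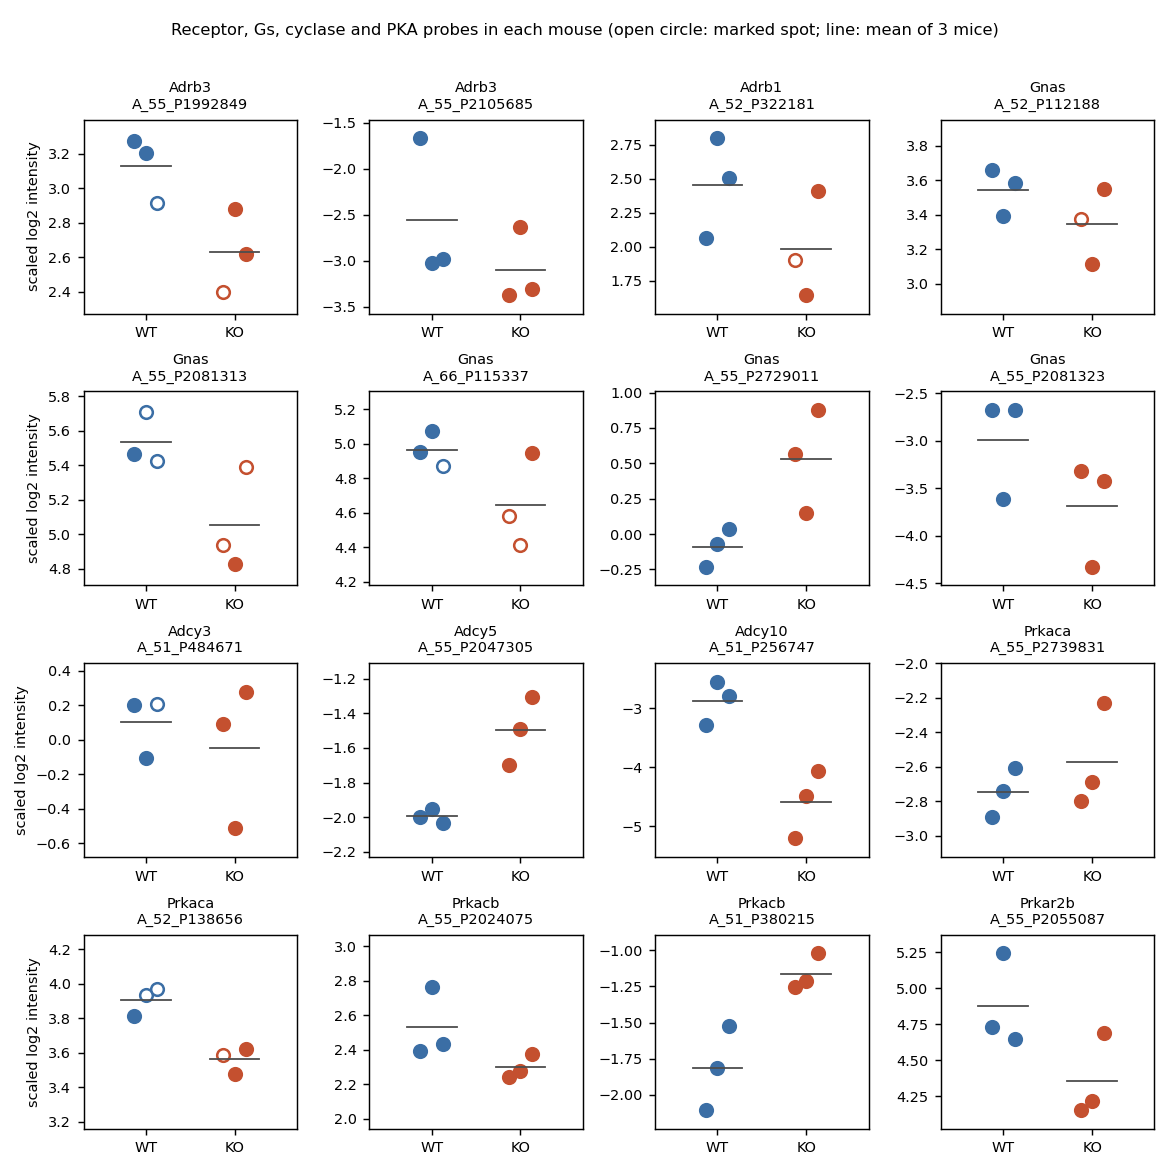
Scaled log2 intensity (y axis, own scale for each probe) of the 16 testable probes in each of 3 WT (blue) and 3 KO (red) mice, with open circles for spots marked as outliers and a line at the mean of 3 mice. On 5 of the 16 probes all KO mice sat below all WT mice, as on 13.6% of all detected probes. These were *Adcy10*, the brighter probes of *Adrb3*, *Prkaca* and *Prkacb*, and the brightest of *Gnas*. On 3 all KO mice sat above, as on 11.9%, namely *Adcy5*, another *Gnas* probe and the dimmer *Prkacb* probe.

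The β3-adrenergic receptor *Adrb3* was read by 2 probes for the same transcript (NM_013462). On the brighter probe the WT mice stood at 3.27, 3.21 and 2.91 and the KO mice at 2.40, 2.88 and 2.62, with the spots of WT 3 and KO 1 marked. Every KO mouse was below every WT mouse, although the highest KO value and the lowest WT value were 2.88 and 2.91. Without the marked spots, 2 WT mice averaged 3.24 ± 0.05 (SD) and 2 KO mice 2.75 ± 0.18 (SD), which gave a log2 difference of -0.49 (standard error 0.19, limma adjusted p = 0.269) just outside the unadjusted threshold. With them the difference was -0.50 (limma adjusted p = 0.193) and inside that threshold, so the side of the threshold moved and the size did not.

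The dimmer *Adrb3* probe had no marked spot and stood at -1.67, -3.03 and -2.99 in the WT mice and at -3.38, -2.63 and -3.31 in the KO mice. The groups overlapped, since KO 2 lay above both WT 2 and WT 3. Its log2 difference was -0.55 (95% confidence interval -1.49 to 0.40), in the same direction as the bright probe and with a wider error, and it was -0.10 without WT 1.

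*Adrb1*, the β1 receptor, which is also expressed by preadipocytes, had 1 probe, at 2.07, 2.80 and 2.51 in WT mice and at 1.90 (marked), 1.64 and 2.41 in KO mice. The groups overlapped, because KO 3 was above WT 1. KO minus WT was -0.43 on the log2 scale with a 95% confidence interval from -1.21 to 0.35 and a limma adjusted p = 0.491. It ranged from -0.62 without WT 1 to -0.26 without WT 2.

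The levels that followed *Adrb3* most closely over the 6 arrays, both marked spots included, were those of *Primpol* (Pearson r = 0.999), a DNA primase-polymerase, *Piezo2* (r = 0.991), a mechanosensitive ion channel, and *Sostdc1* (r = 0.982), a secreted antagonist of BMP and Wnt ligands. These are the highest of 11577 genes compared, they share the 6 arrays and the scaling with *Adrb3*, and the ranking is a description with no test.

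*Gnas* encodes the α subunit of Gs and is an imprinted locus with several promoters and overlapping transcripts. It had 6 probes. With marked spots kept, those that could be tested had a lower KO mean, except the one designed to NM_001310083. In the array design 3 of the 6 probes carry the same RefSeq transcript (NM_001077510). The one that stood for the gene had 3.66, 3.39 and 3.59 in WT mice and 3.38 (marked), 3.12 and 3.55 in KO mice. The groups overlapped, with a log2 difference of -0.21 (95% confidence interval -0.70 to 0.27).

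The brightest *Gnas* probe stood at 5.47, 5.71 and 5.43 in WT mice and at 4.94, 4.82 and 5.39 in KO mice, and 4 of its 6 spots were marked. Every KO mouse was below every WT mouse, with KO 3 close to WT 3. It could be tested only with marked spots kept, where the log2 difference was -0.48 (standard error 0.20, limma adjusted p = 0.271 in the fit of all probes), inside the unadjusted threshold. The remaining probe of that transcript, with 3 marked spots, read 4.95, 5.07 and 4.87 in WT mice and 4.58, 4.41 and 4.95 in KO mice. KO 3 lay above WT 3, so the groups overlapped, and the difference with marked spots kept was -0.32 (95% confidence interval -0.75 to 0.11).

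The *Gnas* probe designed to NM_001310083 went the other way. It stood at -0.23, -0.07 and 0.03 in WT mice and at 0.57, 0.15 and 0.88 in KO mice, so that every KO mouse was above every WT mouse. Its log2 difference was 0.62 (standard error 0.22, limma adjusted p = 0.226), inside the unadjusted threshold. That call was lost without WT 1 (0.55), WT 2 (0.63), KO 1 (0.60) or KO 3 (0.45). The KO minus WT difference of the probe that stood for the gene was 0.82 lower on the log2 scale than that of this probe on the same arrays, and the 6 within-array ratios of the 2 probes did not overlap between the groups. That comparison reached p = 0.1 in a two-sided exact permutation test of 3 against 3 mice, which is the smallest p this design can give, and 0.233 after Benjamini-Hochberg adjustment over the 7 such probe pairs compared.

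A further *Gnas* probe (NM_019690) read -2.67, -3.61 and -2.67 in WT mice and -3.32, -4.33 and -3.43 in KO mice. WT 2 fell among the KO mice, and the difference of -0.70 had a 95% confidence interval from -1.55 to 0.14. It was -1.02 without WT 2, inside the unadjusted threshold, and -0.39 without KO 2, outside it. The sixth, designed to NM_201617, was not well above background on any array.

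Of the membrane cyclases, *Adcy3* stood at 0.20, -0.10 and 0.21 (marked) in WT mice and at 0.09, -0.51 and 0.28 in KO mice. The groups overlapped, with a log2 difference of -0.10 (95% confidence interval -0.77 to 0.57), which became 0.13 without KO 2.

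*Adcy5*, a cyclase that calcium and Gi both inhibit, was the 1 gene of the 9 that was higher in KO mice at the unadjusted threshold. Its probe stood at -2.00, -1.96 and -2.03 in WT mice and at -1.70, -1.49 and -1.31 in KO mice. The SD of the 3 WT mice was 0.04, and every KO mouse was above them. Its log2 difference was 0.50 (standard error 0.15), a 1.41-fold higher signal in KO mice, with a limma adjusted p = 0.158. It was between 0.40 and 0.60 whichever mouse was left out, each time at an unadjusted p below 0.05. With the normexp background model it was 0.32, outside that threshold.

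*Adcy10* encodes the soluble adenylyl cyclase, which bicarbonate and calcium activate and which neither Gs nor the β-adrenergic receptors control. Its brighter probe stood at -3.28, -2.55 and -2.80 in WT mice and at -5.21, -4.48 and -4.06 in KO mice. Every KO mouse was below every WT mouse, the nearest being -4.06 and -3.28, and KO 1 was not well above background. WT mice averaged -2.88 ± 0.38 (SD, n = 3) and KO mice -4.58 ± 0.58 (SD, n = 3). The difference of -1.71 (standard error 0.33) was a 3.27-fold lower signal in KO mice, with a limma adjusted p = 0.0778. The second *Adcy10* probe was above background on 1 WT array and on no other, and was not tested.

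The size for *Adcy10* depended on the background and the normalization. It was -0.96 with the normexp background model and -1.90 with quantile normalization, both at an unadjusted limma p below 0.05. With a trended and robust variance the limma fit gave adjusted p = 0.0306, which made *Adcy10* the only one of the 9 genes to pass the adjusted threshold under any setting run.

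*Prkaca* encodes the main catalytic subunit of PKA, and its 2 probes, both designed to NM_008854, disagreed. The brighter one stood at 3.82, 3.94 and 3.97 in WT mice and at 3.59, 3.48 and 3.63 in KO mice, with WT 2, WT 3 and KO 1 marked. All KO mice were below all WT mice, yet only 1 unmarked WT value remained, so the probe could be tested only with marked spots kept. The difference was then -0.34 (95% confidence interval -0.64 to -0.05, limma adjusted p = 0.201), inside the unadjusted threshold.

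The dimmer *Prkaca* probe, which stood for the gene when marked spots were left out, had -2.89, -2.74 and -2.61 in WT mice and -2.80, -2.69 and -2.23 in KO mice. The groups overlapped, with a difference of 0.18 (95% confidence interval -0.27 to 0.62) that came to 0.00485 without KO 3, the highest of the 6 mice. The difference of this probe was 0.52 higher than that of the brighter one, with p = 0.1 in the two-sided exact permutation test and 0.233 after adjustment.

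*Prkacb*, the second catalytic subunit, showed the same split between probes of one transcript (NM_011100), with no marked spot on either. The brighter probe read 2.39, 2.76 and 2.43 in WT mice and 2.24, 2.28 and 2.37 in KO mice. No KO mouse reached a WT mouse, but the nearest were 2.37 and 2.39, and the difference of -0.23 (95% confidence interval -0.59 to 0.13) had a limma adjusted p = 0.435. Without WT 2, the highest value, it was -0.11.

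The dimmer *Prkacb* probe read -2.10, -1.82 and -1.52 in WT mice and -1.25, -1.22 and -1.02 in KO mice, with every KO mouse above every WT mouse. Its difference was 0.65 (standard error 0.19, limma adjusted p = 0.175), inside the unadjusted threshold. The difference of the brighter probe was 0.88 lower than that of the dimmer, again at the smallest possible p = 0.1 of the exact permutation test. In *Prkaca* and *Prkacb* alike the dimmer probe had the higher difference, while in *Adrb3* both probes were below 0. The scaling divides all signals of an array by the same value, so it cancels between probes of that array. The part of probe brightness in these splits was not tested. Which parts of the transcripts the *Prkaca* and *Prkacb* probes read is not given in the sources used here.

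*Prkar2b* encodes RIIβ, the PKA regulatory subunit that prevails in adipose tissue. Its probe stood at 4.73, 5.24 and 4.65 in WT mice and at 4.15, 4.22 and 4.69 in KO mice. KO 3 lay between WT 3 and WT 1, and the other KO mice were below all WT mice. The log2 difference was -0.52 (standard error 0.22, 95% confidence interval -1.05 to 0.01, limma adjusted p = 0.271), just outside the unadjusted threshold. It was -0.64 without WT 3 and -0.69 without KO 3, both inside that threshold, and -0.34 without WT 2, -0.42 without KO 1 and -0.45 without KO 2, all outside it.

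By probe, 1 of the 13 tested was lower in KO mice at an unadjusted limma p below 0.05 (*Adcy10*), where 6.73% of all probes were. The 3 that were higher were those of *Adcy5*, the NM_001310083 probe of *Gnas* and the dimmer *Prkacb* probe, where 9.70% of all probes were. With marked spots kept, 4 of 16 were lower (8.07% of all probes), *Adcy10*, the brighter probes of *Adrb3* and *Prkaca* and the brightest of *Gnas*, and the same 3 were higher (9.30% of all probes). Every KO mouse lay below every WT mouse on 5 of the 16 probes, as on 13.6% of all detected probes, and above on 3, as on 11.9%.

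**Figure D2:**
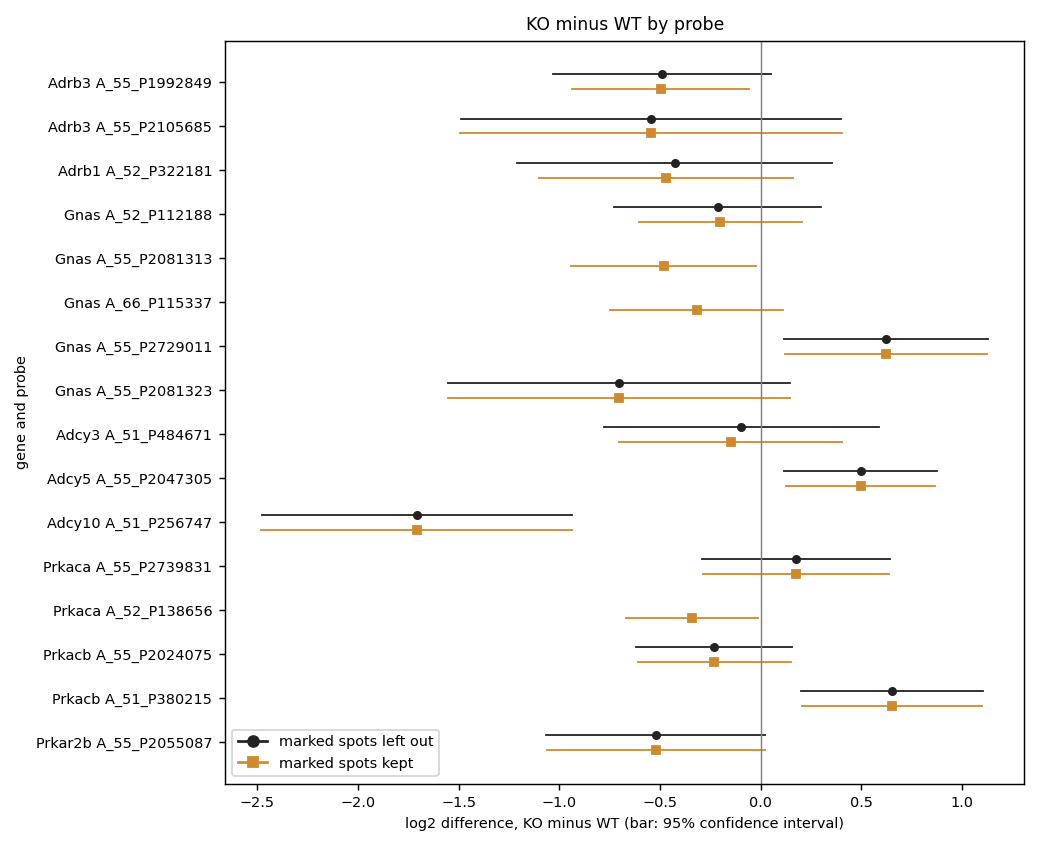
Log2 difference, KO minus WT (x axis), of each of the 16 testable probes, with its 95% confidence interval, marked spots left out (black circles) or kept (orange squares). The probes of *Gnas*, *Prkaca* and *Prkacb* lie on both sides of 0, and the intervals of *Adcy10*, *Adcy5*, 1 *Gnas* probe and the dimmer *Prkacb* probe exclude 0 in both settings.

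The normalization set the size of several differences. With quantile normalization *Adrb3* was at -0.30, *Prkar2b* at -0.25 and *Gnas* at -0.05, all outside the unadjusted threshold. In the table of values that the authors deposited *Adrb3* was at -0.30, *Prkar2b* at -0.24 and *Gnas* at 0.03. *Adcy5* was at 0.40 and *Adcy10* at -1.91 in that table, both inside the unadjusted threshold. Over all genes that table gave 1581 lower and 1138 higher calls, against 1296 and 1476 in the main setting. Keeping marked spots together with quantile normalization, a setting chosen after seeing the data, left 1 lower gene among the 9, with *Prkaca* at -0.10 and the brightest *Gnas* probe at -0.17.

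**Figure D3:**
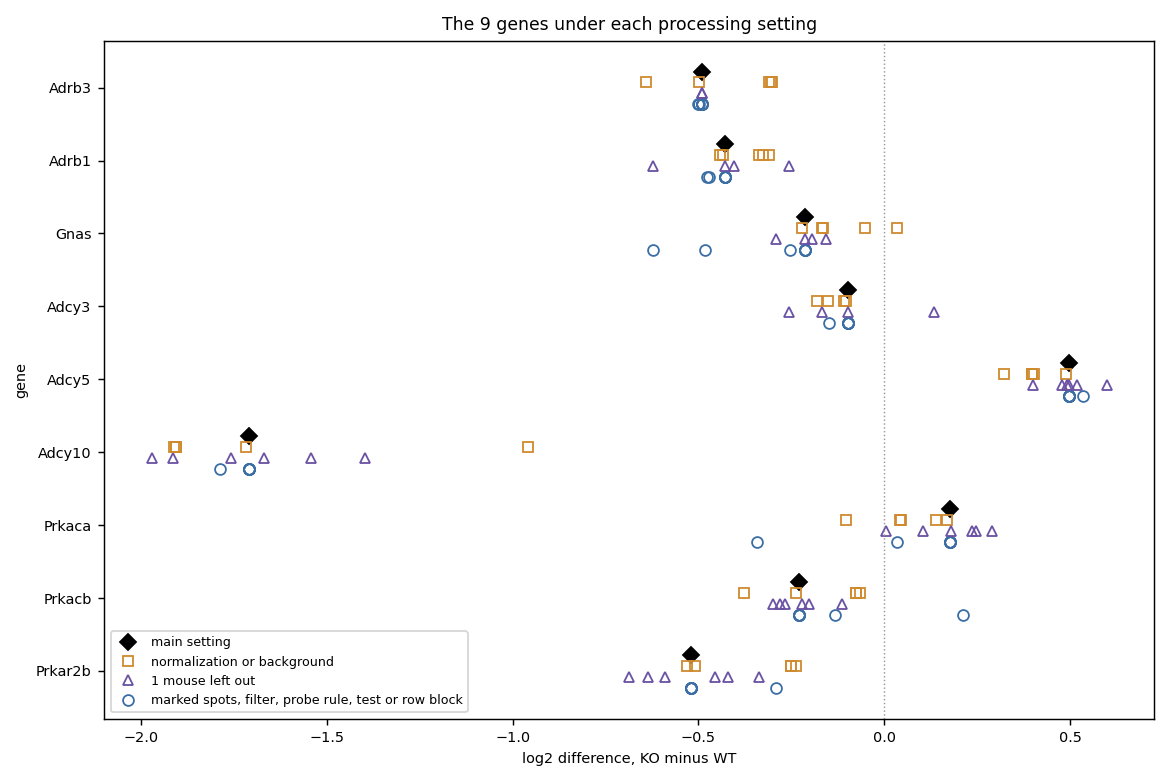
Log2 difference, KO minus WT (x axis), of the 9 genes in the main setting (black diamond) and under the other settings, grouped as normalization or background (orange squares), 1 mouse left out (purple triangles) and the remaining choices (blue circles). *Adcy10*, *Adcy5*, *Adrb3*, *Adrb1* and *Prkar2b* keep their sign under every setting in which they could be tested, and *Gnas*, *Adcy3*, *Prkaca* and *Prkacb* each cross 0 at least once.

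The arrays lay in 2 rows of 1 slide, WT 1 and WT 2 in row 1 and the other 4 in row 2, so a fit with the row as a block compares WT 3 with the 3 KO mice. In that fit *Adcy10* was at -1.79 (limma adjusted p = 0.440), still inside the unadjusted threshold, and *Adcy5* at 0.54 (limma adjusted p = 0.604), outside it. *Prkar2b* was at -0.29 and *Prkacb* at -0.13, each closer to 0 than without the block. The NM_001310083 probe of *Gnas* was at 0.50 and the dimmer *Prkacb* probe at 0.36, both outside the unadjusted threshold. *Adcy3* and the brighter probe of *Adrb3* could not be fitted because WT 3 was marked.

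The brown fat label was checked on its markers, and *Ucp1*, *Cidea* and the other brown adipocyte markers, 12 in all, were above background on all 6 arrays. With marked spots kept, the mean of these 12 ran from 2.81 to 3.12 in WT mice and from 2.38 to 2.90 in KO mice. That of 10 markers of all adipocytes ran from 4.22 to 4.53 in WT mice and from 3.97 to 4.43 in KO mice, a difference of -0.22. The mean of 20 skeletal muscle markers, 13 of them above background on all arrays, was at 2.37, 1.56 and -4.40 in WT mice and at 0.08, 3.39 and 1.49 in KO mice, so WT 3 held far less muscle signal than any other array. Without WT 3 the 9 genes had a median of -0.28, *Adcy10* was at -1.67 and *Adcy5* at 0.48, both at an unadjusted limma p below 0.05. The mean of 8 white adipocyte markers ran from -2.09 to -1.82 in WT mice and from -1.77 to -1.24 in KO mice without overlap. Of these 8, 3 were higher and 1 lower at an unadjusted limma p below 0.05, where 9.47% and 11.1% of all genes were. The mean of 9 nerve and Schwann cell markers ran from -0.37 to 0.13 in WT mice and from -0.47 to -0.29 in KO mice. The part of these markers in the receptor and PKA values was not tested.

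Beyond the 9 genes, 107 further genes of the pathway were listed by role, of which 106 had a probe and 90 could be tested. At an unadjusted limma p below 0.05, 10 were lower and 5 higher in KO mice, none passed the adjusted threshold, and the median difference was -0.08. The shares of all tested genes at that threshold, 8.81% lower and 10.0% higher, and their median of -0.03 are the background for each list of the pathway.

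Of 6 other adrenergic receptors tested 1 was higher and none lower, with a median of -0.09. *Adra1a*, the Gq-coupled α1A receptor, was 1.75-fold higher in KO mice (log2 difference 0.81, limma adjusted p = 0.162), and both of its probes had all KO mice above all WT mice.

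Of 10 other Gs-coupled receptors of adipocytes, 2 were lower and 1 higher, with a median of -0.23. *Mc5r* encodes a melanocortin receptor, and its brighter probe was designed to a RefSeq record of a non-coding transcript (XR_385979). That probe stood at -0.35, -0.19 and 0.74 in WT mice and at -1.03, -2.43 and -1.47 in KO mice, with WT 3 and KO 1 marked. No KO mouse reached a WT mouse, and the log2 difference was -1.68 without the marked spots (limma adjusted p = 0.122) and -1.71 with them. A second *Mc5r* probe (NM_013596) was at -1.15 in the same direction, but it was above background in only 1 KO mouse. The secretin receptor *Sctr* was at -0.60 (limma adjusted p = 0.178), a call that was lost without WT 2 (-0.55), WT 3 (-0.49) or KO 3 (-0.54). The glucagon receptor *Gcgr* was 2.15-fold higher in KO mice with no overlap (limma adjusted p = 0.0962). The normexp background model gave a log2 difference of 0.58, which is a smaller difference than in the main setting and still inside the unadjusted threshold.

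Among 13 other G protein subunits tested, *Gnb5*, an atypical β subunit that pairs with RGS proteins, was at -0.53 (limma adjusted p = 0.184), while its second probe was at 0.24 with overlapping groups. The call was lost without WT 2 (-0.45) or KO 3 (-0.44). The largest difference of that list was the 0.77 of *Gnal*, with a 95% confidence interval from -0.53 to 2.07. It rested on KO 2, which stood at -3.07 while the other 5 mice lay between -5.42 and -5.06, and without KO 2 it was 0.07. When marked spots were kept, 2 of 14 genes of the list were lower and 1 higher, where 11.1% and 9.47% of all genes were. This added *Gng5* at -0.40 and *Gnb4* at 0.78, both named after their values were seen. *Gnb4* then stood on another probe. The probe that stood for it with marked spots left out was at 0.24 with overlapping groups. None of 5 other adenylyl cyclases tested passed the threshold, and the largest difference was the 0.19 of *Adcy4*. None of 6 other PKA regulatory subunits and PKA inhibitors passed either.

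The largest difference of that last list was the 1.64 of *Pkia* (limma adjusted p = 0.333), an inhibitor of the PKA catalytic subunit. It stood at -3.39, -4.66 and -5.83 in WT mice and at -3.77, -1.36 and -3.82 in KO mice. WT 3 was its lowest and KO 2 its highest value, as in the skeletal muscle markers, and the part of muscle in this value was not tested. The difference was 2.26 without WT 1, inside the unadjusted threshold, and 0.83 without KO 2 and 1.04 without WT 3, both outside it.

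Of 11 A-kinase anchoring proteins tested 1 was lower, near the 8.81% of all genes. *Akap7* was at -0.46 on its brightest probe (limma adjusted p = 0.153), with 1.61 ± 0.11 (SD, n = 3) in WT mice against 1.15 ± 0.09 (SD, n = 3) in KO mice and no overlap. Its second probe was at -0.29 without overlap. The other went the opposite way, at 0.40 without overlap on 4 unmarked spots and at 0.20 with overlap on all 6. The largest difference was the 0.52 of *Akap11* on a dim probe (limma adjusted p = 0.285), where a brighter probe marked on all 6 arrays was at 0.06. The dim probe was at 0.67 without KO 1, inside the unadjusted threshold, and at 0.28 without KO 3, outside it.

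Phosphodiesterases break cAMP down, and 3 of 15 tested were lower and none higher in KO mice, where 8.81% and 10.0% of all genes were. With marked spots kept 4 of the 15 were lower, where 11.1% of all genes were, the fourth being *Pde3b*, named after its value was seen. It was at -0.47 on the probe that then stood for it and at 0.17 on the other, and the median of the list went from -0.115 to 0.05. *Pde8b*, of a high-affinity cAMP-specific family, stood at -2.33, -2.08 and -2.34 in WT mice and at -3.03, -2.74 and -2.92 in KO mice, with no overlap. Its log2 difference was -0.65 (limma adjusted p = 0.107). Its 2 dimmer probes were above background on at most 3 of the 6 arrays, and the one that could be tested was at 0.23 with overlapping groups. With the mean of its probes *Pde8b* was at -0.21, outside the unadjusted threshold. *Pde4a* was at -0.41 (limma adjusted p = 0.239), a call lost when any mouse but KO 3 was left out (-0.46 to -0.31). *Pde7b* was not well above background in any KO mouse, and its log2 difference was -0.82 (limma adjusted p = 0.245). The groups overlapped, since KO 1 at -5.21 lay above WT 2 at -5.42. The call was lost without KO 2 (-0.61) or KO 3 (-0.68).

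Neither of the 2 Epac exchange factors, which bind cAMP independently of PKA, passed the threshold. *Rapgef4* had the larger difference, -0.40, with overlapping groups, and it was -0.76 without WT 3, inside that threshold, and -0.24 without WT 1 and -0.22 without WT 2, both outside it. Its sign turned, to 0.30, in the fit with the row block.

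Genes whose proteins shut receptors off were the list with the highest median, 0.39, with 3 of 6 higher in KO mice and none lower, where 10.0% of all genes were higher. The median was 0.22 over 8 genes, 3 of them higher, when marked spots were kept, where 9.47% of all genes were higher. *Rgs16*, which speeds the GTPase of Gi and Gq α subunits, stood at -2.88, -2.87 and -3.67 in WT mice and at -1.69, -1.62 and -1.59 in KO mice. Every KO mouse was above every WT mouse, the log2 difference was 1.51 (standard error 0.24, a 2.85-fold higher signal), with a limma adjusted p = 0.0596. *Arrb2*, β-arrestin-2, was at 0.55 (limma adjusted p = 0.123), and its 2 dimmer probes were at 0.64 and 0.90, all without overlap. *Grk5*, a receptor kinase, was at 0.56 on 4 unmarked spots (limma adjusted p = 0.250) and at 0.53 on all 6.

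**Figure D4:**
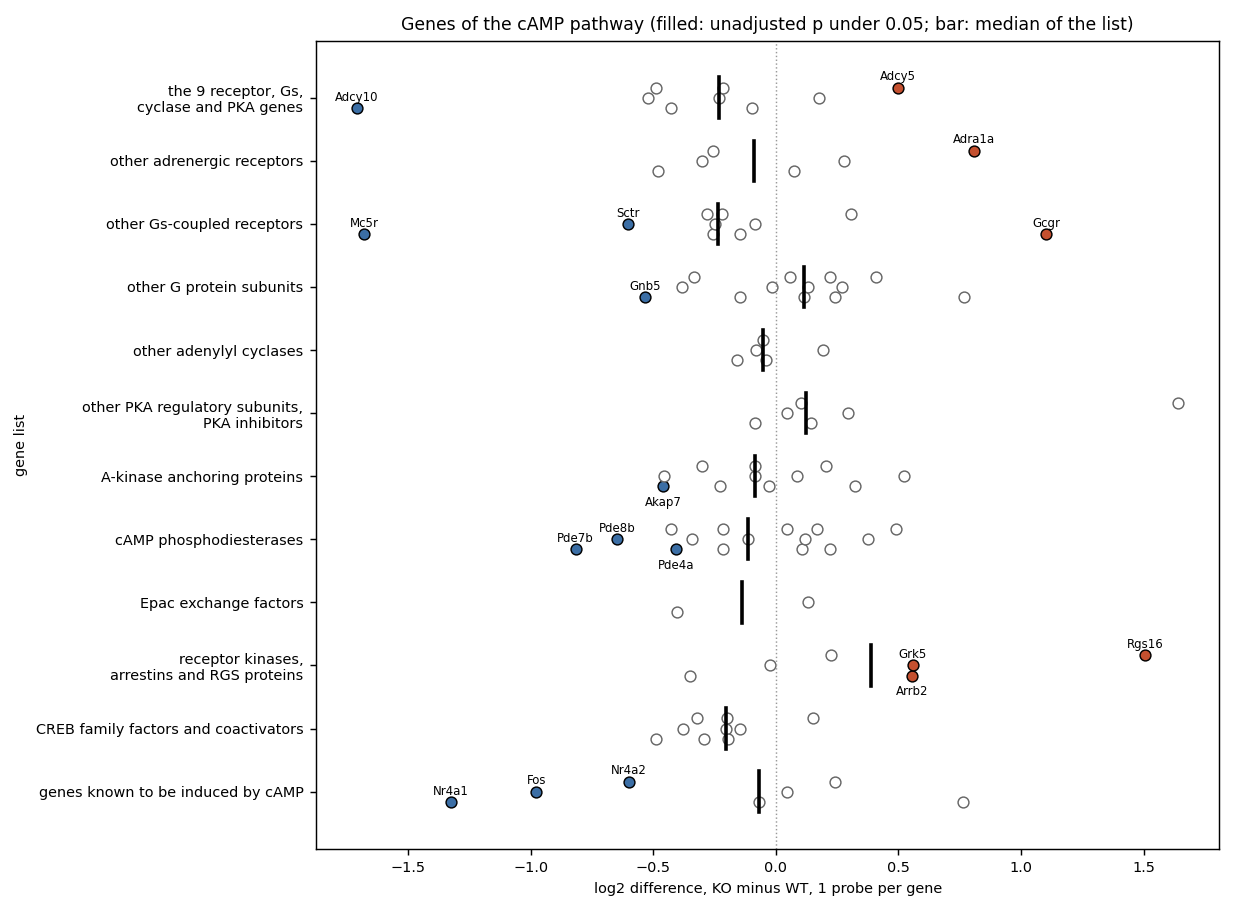
Log2 difference, KO minus WT (x axis), of every tested gene of the 9 receptor, Gs, cyclase and PKA genes and of 11 pathway lists, with filled circles for an unadjusted p below 0.05 and a bar at each list's median. The receptor kinase, arrestin and RGS list has the highest median, 0.39, and the lowest are those of the 9 genes and of the other Gs-coupled receptors, both -0.23.

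CREB family factors and coactivators had 8 of 9 differences below 0, where 7780 of all 14712 genes had, and a median of -0.20. None passed the threshold with marked spots left out. *Crtc2*, a CREB coactivator that PKA signaling releases into the nucleus, stood at 2.48, 2.24 (marked) and 2.60 in WT mice and at 2.20, 1.90 and 1.25 (marked) in KO mice. Its log2 difference was -0.49 without the marked spots (limma adjusted p = 0.283) and -0.66, inside the unadjusted threshold, with them. With these kept, *Crem*, named after its value was seen, was also inside that threshold, at -0.51. *Crem* then stood on another probe. The probe that stood for it with marked spots left out was at -0.32 with overlapping groups.

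Genes known to be induced by cAMP had 7 of 12 members tested, of which 3 were lower, where 8.81% of all genes were, and none higher, with a median of -0.07. *Nr4a1*, an orphan nuclear receptor rapidly induced by β-adrenergic stimulation, stood at 1.08, 1.31 and 0.47 in WT mice and at 1.27, 0.00 and -0.26 in KO mice, with WT 3 and KO 1 marked. Its log2 difference was -1.33 (limma adjusted p = 0.0804) without the marked spots, but KO 1 was among the WT mice, and with all spots it was -0.62 and outside the unadjusted threshold. *Fos* had the same 2 spots marked and went from -0.98 (limma adjusted p = 0.168) to -0.24, outside that threshold, with them.

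*Nr4a2*, with no marked spot, stood at 0.72, 1.03 and 0.53 in WT mice and at 0.47, -0.19 and 0.19 in KO mice. No KO mouse reached a WT mouse on either of its 2 probes, and the log2 difference was -0.60 (limma adjusted p = 0.218). The call was lost without WT 1 (-0.62), WT 2 (-0.46), KO 2 (-0.43) or KO 3 (-0.61).

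The 5 untested members of that list had too few unmarked spots, and they include *Ucp1*, the uncoupling protein of brown fat. With marked spots kept, *Ucp1* averaged 5.63 ± 0.19 (SD, n = 3) in the WT group against 5.25 ± 0.35 (SD, n = 3) in the KO group, with overlap and a difference of -0.38 (limma adjusted p = 0.344). *Ppargc1a*, the coactivator of mitochondrial biogenesis, was at -0.59 and *Sik1*, a kinase that restrains CREB coactivators, at -0.69, both inside the unadjusted threshold and without overlap. With marked spots kept 3 of the 12 were lower, these 2 and *Nr4a2*, where 11.1% of all genes were. The median was then -0.39, beside -0.06 for all genes.

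CREB binds the cAMP response element TGACGTCA and its half-site TGACG, which reads CGTCA on the other strand. Of the induced genes, RefSeq windows were examined by gene only for the 3 that were lower with marked spots left out, and all 3 hold half-sites. These 3 were chosen by their result. With marked spots kept, *Nr4a1* (-0.62) and *Fos* (-0.24) were outside the unadjusted threshold and *Nr4a2* (-0.60) was inside it. The other induced genes were not compared, so a link between half-sites and lower levels was not tested. Each window runs 5′ to 3′ on the gene's strand from 250 bases before the start to 50 after it, with half-sites on either strand in capitals (build GRCm38.p6).
*Nr4a1*, chr15:101266596-101266895, plus strand, 4 half-sites: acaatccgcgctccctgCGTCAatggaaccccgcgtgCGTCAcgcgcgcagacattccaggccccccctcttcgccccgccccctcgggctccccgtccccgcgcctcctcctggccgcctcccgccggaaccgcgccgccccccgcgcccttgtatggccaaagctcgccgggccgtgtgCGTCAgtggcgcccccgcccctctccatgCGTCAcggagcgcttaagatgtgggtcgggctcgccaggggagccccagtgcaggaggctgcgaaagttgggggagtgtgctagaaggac
*Nr4a2*, chr2:57123954-57124253, minus strand, 4 half-sites: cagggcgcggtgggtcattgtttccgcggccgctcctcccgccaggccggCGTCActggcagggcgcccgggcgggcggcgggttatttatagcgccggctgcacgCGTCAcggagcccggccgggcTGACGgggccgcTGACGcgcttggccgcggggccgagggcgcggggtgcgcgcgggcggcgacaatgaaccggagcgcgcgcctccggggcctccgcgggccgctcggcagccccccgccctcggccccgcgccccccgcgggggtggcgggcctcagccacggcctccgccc
*Fos*, chr12:85473640-85473939, plus strand, 2 half-sites: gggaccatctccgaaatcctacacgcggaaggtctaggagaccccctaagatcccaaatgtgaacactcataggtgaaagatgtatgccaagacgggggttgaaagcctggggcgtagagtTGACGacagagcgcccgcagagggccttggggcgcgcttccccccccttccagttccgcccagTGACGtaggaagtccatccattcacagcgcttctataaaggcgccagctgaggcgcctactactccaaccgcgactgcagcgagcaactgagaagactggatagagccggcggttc
Of all 32851 windows, 20.8% held a half-site and 1.79% the full element. The table held 16 windows for 8 of the 9 receptor, Gs, cyclase and PKA genes and none for *Adrb3*. A half-site was present in 6 of the 16, namely in 3 of the 4 *Gnas* windows, 1 of 3 for *Prkacb*, 1 of 2 for *Prkaca* and the single window of *Adrb1*. None of the 16 held the full element, and those of *Adcy3*, *Adcy5*, *Adcy10* and *Prkar2b* held neither.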

How the data were processed

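RNA was extracted with TRIzol, amplified, labeled with Cy3 and hybridized to Agilent mouse gene expression arrays, 1 mouse per array. The authors deposited scanner files of Agilent Feature Extraction (version 11.5.1.1 per the file headers, 10.7 per the submitters' processing notes) with a processed intensity per spot, background-subtracted and detrended within the array, and a table of log2 values whose processing was not given in the sources used here. That table tracked each array (r at least 0.9998) and was an alternative only.

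Intensities were divided by the 75th percentile of their array and log2-transformed, control spots and spots marked as outliers were left out, and spots of a probe were averaged. No probe was saturated. Probes were named through RefSeq transcripts of build GRCm38.p6 (33767 of 56605 matched). Probes above background on at least 3 arrays with 2 unmarked values per group were tested with limma 3.58.1 (R 4.3.3, lmFit and eBayes, two-sided, unadjusted threshold 0.05 after the study's methods) on 1 probe per gene, the brightest, and separately on every probe, with Benjamini-Hochberg adjustment over all genes or all probes. Values quoted for a gene's second probe come from the fit of all probes. The number of arrays limits the precision. The code was tested on simulated data. The genes, lists and tests were chosen with earlier results of these data known. Named were the 9 genes with every probe, pathway genes past the unadjusted threshold, the largest difference of each list and the 3 genes most like *Adrb3*. Alternatives were the normalization, the background, the marked spots, the filter, the probe rule, SAM, a t-test per the methods, a trended variance, the slide row and leaving out each mouse. Keeping marked spots together with quantile normalization was added after seeing the data. The deposited files held no column of another sample. A gene of the pathway is not reported here.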

Additional observations from a re-analysis of the deposited data

How the results depend on the processing

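No paired analysis was possible because the labels carry no number shared by WT and KO mice.

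The count of the 9 genes lower in KO mice at an unadjusted p below 0.05 was 1 and became 4 with marked spots kept, 3 with the normexp background and with the trended variance, 2 with the median of detected probes, with the filter on all 6 arrays and with SAM, and 1 to 2 with 1 mouse left out. The count of higher genes was 1 and became 0 with normexp and with the row block. The count past the adjusted threshold was 0 and became 1 with the trended variance. The median of the 9 genes was -0.47 with marked spots kept, -0.43 with the mean of a gene's probes, nearer to 0 at -0.10 with quantile normalization, -0.15 with the authors' values and -0.17 with marked spots kept and quantile normalization, and -0.30 to -0.0432 with 1 mouse left out (-0.0432 without KO 2, where 6 genes were testable).

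Of the pathway genes, 10 were lower, against 6 with the methods' t-test, 1 with the row block (73 genes tested) and 3 to 10 with 1 mouse left out. The 5 that were higher became 3 with the row block, 8 with marked spots kept and quantile normalization, and 4 to 9 with 1 mouse left out (9 without KO 1). Their median of -0.08 was -0.00213 with quantile normalization, 0.00170 with the authors' values, 0.0247 with the mean of probes, 0.0566 with the row block and -0.0614 to 0.0224 with 1 mouse left out. Over all genes 1296 were lower and 1476 higher, against 298 and 777 with the row block, 1320 and 891 with normexp, 1581 and 1138 with the authors' values, and 672 to 1337 and 1004 to 1400 with 1 mouse left out.

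Signs changed for *Gnas* (0.0330, authors' values), *Adcy3* (0.13 without KO 2, from -0.26 to 0.13 with 1 mouse left out), *Prkacb* (0.21, mean of its probes), *Rapgef4* (0.30, row block) and *Prkaca* (-0.34 with marked spots kept, where its other probe stood for the gene, and -0.10 with quantile normalization added). Without a filter on dim probes the median of all genes moved to 0.14. The causes of the other changes were not tested.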
